A study of Mus musculus with 6 samples.

Results

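The genes described here are Pf4, Ppbp, Mmrn1, Vwf and Slamf1, transcripts of megakaryocytes and of the platelets they shed, as counted by in situ imaging in sections of mouse fetal liver, bone marrow and spleen. They were chosen by name, with earlier results of these data known, and are 5 of the 477 genes on the panel used for 4 of the sections. The panel of 5050 genes used for the other sections held 4 of them and not Slamf1. Counts were read as deposited, that is, decoded transcripts per gene and per outlined cell.

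The study set out to map where red cells are made in hematopoietic tissues, and 6 mouse sections, 1 per condition, were available here. All came from wild-type mice of the C57BL/6 background, and each section was 5 µm thick and cut from formalin-fixed, paraffin-embedded tissue. On the smaller panel these were the liver of an embryo at E14.5, the bone marrow of a leg at postnatal day 8 (P8), an untreated adult spleen, and the spleen of a mouse given phenylhydrazine (PHZ) into the peritoneum at 40 mg/kg, 2 times a day for 2 days. PHZ destroys circulating red cells and provokes stress erythropoiesis. On the larger panel they were the liver of an embryo at E13.5 and the leg marrow of a mouse aged 89 weeks, which was freed from bone after fixation and freezing and then embedded again. The labels call the mouse of the untreated spleen adult and give no age for that of the PHZ spleen, while the study's text puts its spleens at 2 months, and in 1 place at 3 months. The legends describe each spleen section as coming from 1 mouse, and for the other sections the labels do not state the number of animals.

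The sections held between 5285 and 143810 cells and between 1384795 and 20952143 gene counts, with a median of 60 to 190 counts per cell. Negative control probes match no mouse transcript, and the most abundant of them gave 1 to 105 counts in a section, and the members had 48.6 to 5328 times its counts. Between 0 and 6 cell names were shared by any pair of sections. The smaller panel was read with expanded nuclei as cells, and the larger with stained cell outlines, so that panel, run and outline differ together and cannot be told apart from age or tissue. An outline can hold several cells or part of a cell, and no doublets were called. There were no replicates of any condition, hence no test between conditions was possible. The intervals in brackets cover counting error only, at 95% confidence, and cells of a section were not taken as replicates.

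Megakaryocytes are large polyploid cells that load granules with adhesive and chemotactic proteins and release platelets into the sinusoids of marrow, fetal liver and, in mice, spleen. Pf4 (platelet factor 4) and Ppbp (pro-platelet basic protein) are chemokines stored in platelet alpha granules. Mmrn1 (multimerin 1) carries coagulation factor V in platelets and is also made by endothelium. Vwf (von Willebrand factor) tethers platelets to injured vessel walls and comes from both megakaryocytes and endothelial cells. Slamf1 (CD150) is a surface receptor of hematopoietic stem cells, megakaryocyte progenitors and activated lymphocytes. In tissue sections a platelet is far smaller than the outlines used here, so that its RNA is credited to whichever cell surrounds it.

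Since Pf4 and Ppbp were co-detected in all 6 sections, the stretch before the start of each member's gene is shown. Both genes lie side by side on chromosome 5, in the order Cxcl5, Ppbp, Pf4, Cxcl3. The 250 bases before the start are given from RefSeq on build GRCm38.p6, on the + strand, for the 4 members that the promoter table held, while Vwf is named only. They are chr5:90772185-90772434 for Pf4, chr5:90768268-90768517 for Ppbp, chr6:60944067-60944316 for Mmrn1 and chr1:171766882-171767131 for Slamf1. Capitals mark the letters of a GATA or an ETS motif.
Pf4: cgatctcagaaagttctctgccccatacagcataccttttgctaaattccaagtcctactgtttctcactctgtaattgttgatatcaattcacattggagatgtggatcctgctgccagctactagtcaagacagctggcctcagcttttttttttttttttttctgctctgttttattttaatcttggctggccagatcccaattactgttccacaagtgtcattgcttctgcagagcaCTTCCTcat
Ppbp: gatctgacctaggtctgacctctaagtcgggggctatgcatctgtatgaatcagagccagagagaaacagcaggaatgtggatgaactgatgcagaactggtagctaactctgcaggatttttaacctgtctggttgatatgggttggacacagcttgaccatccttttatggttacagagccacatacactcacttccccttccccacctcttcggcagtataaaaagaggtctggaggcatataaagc
Mmrn1: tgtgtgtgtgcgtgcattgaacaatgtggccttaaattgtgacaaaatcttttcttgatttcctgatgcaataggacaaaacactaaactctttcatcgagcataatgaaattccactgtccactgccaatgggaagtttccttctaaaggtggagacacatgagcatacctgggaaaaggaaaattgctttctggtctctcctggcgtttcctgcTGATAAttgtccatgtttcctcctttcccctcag
Slamf1: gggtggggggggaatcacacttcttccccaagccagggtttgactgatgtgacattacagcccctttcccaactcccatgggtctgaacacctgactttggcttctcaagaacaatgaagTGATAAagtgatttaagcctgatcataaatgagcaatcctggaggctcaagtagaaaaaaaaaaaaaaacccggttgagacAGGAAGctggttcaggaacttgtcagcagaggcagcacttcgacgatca
The letters AGATAA and TGATAA, or TTATCT and TTATCA on the other strand, were searched as forms of the GATA motif, and AGGAAG, or CTTCCT on the other strand, as an ETS motif. GATA and ETS factors are the classical regulators of megakaryocyte genes. TGATAA lay at -34 to -29 from the start in Mmrn1 and at -130 to -125 in Slamf1, and AGATAA in none of these windows. ETS letters lay at -9 to -4 from the start in Pf4 and at -49 to -44 in Slamf1. Of 32851 promoters of the same length, 9.99% held AGATAA, 7.94% TGATAA and 29.5% the ETS letters, and 2.13% held both TGATAA and the ETS letters. A match describes letters in a window, not a bound site.

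Pf4 was read in every section. On the smaller panel its level was 3175 counts in a total of 1000000 gene counts (CPM) in the P8 marrow [3131-3219], 2478 in the untreated spleen [2447-2508], 2258 in the E14.5 liver [2237-2278] and 2088 in the PHZ spleen [2061-2114]. On the larger panel it was 827 in the aged marrow and 208 in the E13.5 liver. In CPM the 4 sections of the smaller panel thus lay within a narrow range, although no neighboring counting intervals overlapped. The order depended on the scale. Per 1000 cells Pf4 was 403 in the E14.5 liver, 389 in the P8 marrow, 252 in the PHZ and 237 in the untreated spleen. Per mm² it was 6288, 2801, 3382 and 5489 in the same order. Levels of the panels are not set against each other, because Pf4 had 5 probe sets on the smaller and 2 on the larger one.

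In CPM, Ppbp was highest in the untreated spleen among the sections of the smaller panel, at 3196 [3162-3231]. It followed at 2941 in the P8 marrow, 2564 in the PHZ spleen and 1520 in the E14.5 liver, with no overlap between neighbors. Per 1000 cells it was instead highest in the P8 marrow, at 360, against 305 in the untreated spleen, 310 in the PHZ spleen and 271 in the E14.5 liver. The aged marrow gave 7347 CPM of Ppbp and the E13.5 liver 653. Ppbp was the member with the most counts in both sections of the larger panel, 95899 and 904, and a single cell of the aged marrow held 268 of them.

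Mmrn1 was 1155 CPM in the P8 marrow, 1076 in the E14.5 liver, 719.9 in the untreated spleen and 323 in the PHZ spleen. It was 141 CPM in the aged marrow and 48.4 in the E13.5 liver, where it rested on 67 counts. Vwf was 2018 CPM in the E14.5 liver [1999-2038], 1990 in the P8 marrow [1956-2025], 1705 in the PHZ spleen and 829 in the untreated spleen. The first 2 of these did not differ beyond their counting intervals in CPM, while per 1000 cells they were 360 and 244. Vwf was 702 CPM in the aged marrow and 249.9 in the E13.5 liver.

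Slamf1, which only the smaller panel held, stood apart from the other members. It reached 3361 CPM in the untreated spleen, against 710.5 in the PHZ spleen, 429 in the E14.5 liver and 398 in the P8 marrow. Cells with at least 1 Slamf1 count made up 23.4% of the untreated spleen, 6.73% of the PHZ spleen, 2.88% of the E14.5 liver and 2.19% of the P8 marrow. In a section, fewer cells of a type and less RNA per cell cannot be told apart from such sums.

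**Figure D1:**
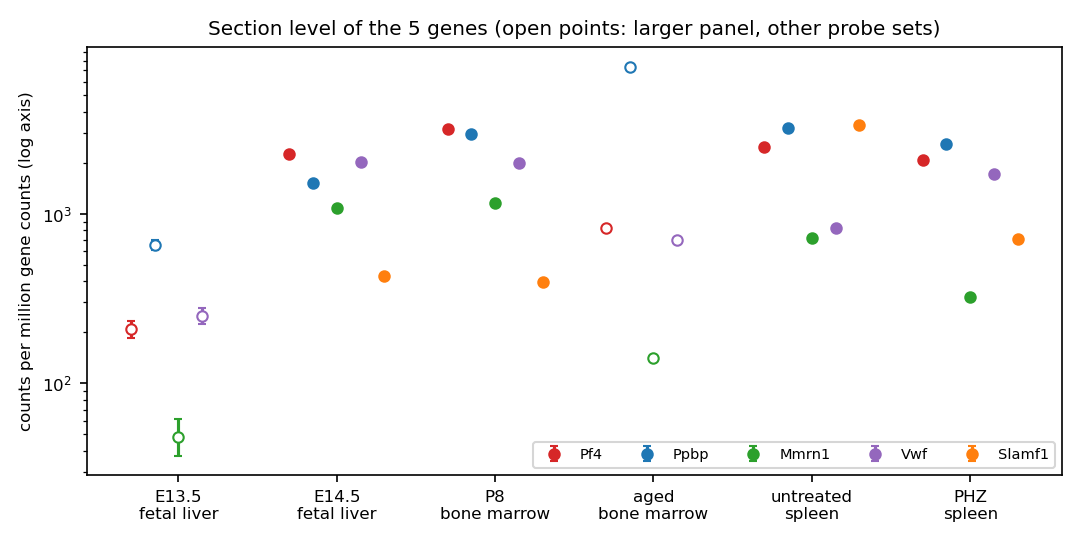
Level of each member in each section, in CPM on a log axis, with exact 95% Poisson intervals that cover counting error only. Filled points are the 4 sections of the 477-gene panel and open points the 2 sections of the 5050-gene panel, which lacks Slamf1. Slamf1 was 3361 CPM in the untreated spleen and at most 710.5 in the other sections that measured it.

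Cells holding at least 10 counts of Pf4 and Ppbp together are called megakaryocyte-list cells below. There were 1789 of them in the E14.5 liver (1.52% of cells), 943 in the P8 marrow (1.79%), 2411 in the aged marrow (1.68%), 512 in the untreated spleen (0.473%), 562 in the PHZ spleen (0.594%) and 29 in the E13.5 liver (0.549%). Per mm² of section this was 238, 129, 348, 109.6, 79.7 and 57.1 in the same order. The gate was met with 5 probe sets for Pf4 and 8 for Ppbp on the smaller panel, but 2 and 5 on the larger. Outlines differed as well, so that the numbers of the panels are not set against each other. These numbers depend on the gate. With at least 5 counts there were 3564, 1776, 4051, 2062, 2237 and 57 such cells, and with at least 20 counts 771, 381, 1323, 186, 143 and 16. The untreated spleen had the lower share of the spleens at 10 counts and at 5 counts (1.903% against 2.37%), and the higher at 20 counts (0.172% against 0.151%). Their outlines were larger than those of other cells in every section. The median outline was 67.9 against 47.8 µm² in the E14.5 liver, 62.9 against 28.1 in the aged marrow and 141 against 52.7 in the PHZ spleen. They also held more counts in all, with a median of 218 against 59 per cell in the aged marrow and 173 against 108 in the P8 marrow, so that folds below are taken as shares of counts.

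Mmrn1, Vwf and Slamf1 took no part in choosing these cells. In the E14.5 liver 93.2% of megakaryocyte-list cells held Mmrn1, 96.0% held Vwf and 73.1% held Slamf1. In the P8 marrow the corresponding shares were 84.4%, 93.7% and 56.4%, and in the untreated spleen 79.1%, 87.1% and 62.3%. They were lowest on this panel in the PHZ spleen, at 52.1% for Mmrn1, 58.9% for Vwf and 46.4% for Slamf1. The aged marrow gave 32.0% for Mmrn1 and 74.3% for Vwf.

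As a share of counts, Mmrn1 was 66.2-fold higher in megakaryocyte-list cells than in other cells of the E14.5 liver, 61.0-fold in the untreated spleen, 45.0-fold in the PHZ spleen, 39.1-fold in the P8 marrow, 34.4-fold in the aged marrow and 18.0-fold in the E13.5 liver. For all genes, 7.42% of 472 genes reached 2-fold in the E14.5 liver, 7.91% of 455 in the P8 marrow, 9.48% of 464 in the untreated spleen, 8.3% of 458 in the PHZ spleen, 9.23% of 3468 in the aged marrow and 13.5% of 2926 in the E13.5 liver, where these cells numbered 29. Vwf was 29.0-fold higher in the E14.5 liver, 36.1-fold in the P8 marrow, 43.6-fold in the aged marrow and 63.6-fold in the untreated spleen. In the PHZ spleen Vwf was 12.5-fold higher, the lowest value in any section, and in the E13.5 liver 16.3-fold. Slamf1 divided the tissues. It was 109.9-fold higher in these cells in the E14.5 liver and 89.2-fold in the P8 marrow, but 10.7-fold in the PHZ spleen and 4.19-fold in the untreated spleen.

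Other genes of the megakaryocyte and platelet program were read from a list of 40 genes, of which the larger panel held 26 and the smaller 7. In the aged marrow 23 of 26 were at least 2-fold higher in megakaryocyte-list cells, with a list median of 12.3 against 0.612 over all genes. Among the highest were the integrin chain Itgb3 (52.8-fold), the adhesive glycoprotein Thbs1 (49.2-fold), the lipoxygenase Alox12 (46.2-fold), the thrombin receptor F2rl3 (45.8-fold) and F2rl2 (44.9-fold). The 3 that missed, named after their values were seen, were Runx1 (1.498-fold), F13a1 (0.907-fold) and Kit (0.209-fold). The first is a transcription factor, the second a subunit of clotting factor XIII and the last the stem cell factor receptor.

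In the E13.5 liver 19 of 23 listed genes with at least 30 counts reached 2-fold, with a median of 9.88 against 0.743 over all genes. Itgb3 (89.4-fold), Alox12 (87.4-fold), F2rl2 (80.8-fold), Thbs1 (78.3-fold), the secretory GTPase Rab27b (60.01-fold) and the platelet tubulin Tubb1 (58.8-fold) led there. On the smaller panel, 5 of 7 genes reached 2-fold in the E14.5 liver, the P8 marrow and the PHZ spleen and 6 of 7 in the untreated spleen. The list medians were 8.21, 3.06, 7.62 and 6.73, against 0.720, 0.723, 0.705 and 0.556 over all genes. Cavin2, a caveolar protein, was 14.5-fold higher in the E14.5 liver, 16.6-fold in the P8 marrow, 12.2-fold in the untreated spleen and 18.6-fold in the PHZ spleen. Gng11, a G protein subunit, was 14.1-, 9.18-, 12.2- and 10.7-fold higher in the same order. Pdgfb, a growth factor of platelet granules, varied more, at 53.0-, 7.597-, 5.24- and 9.72-fold.

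The erythroid and megakaryocyte regulator Gata1 varied widely among sections. It was 20.2-fold higher in megakaryocyte-list cells of the untreated spleen, 3.06-fold in the P8 marrow, 2.57-fold in the aged marrow, 1.49-fold in the E14.5 liver, 1.17-fold on 4 counts in the E13.5 liver and 0.804-fold in the PHZ spleen. Erythroid-list cells, defined below, which also express Gata1, were 4.38% of cells in the untreated spleen, 31.6% in the P8 marrow, 38.2% in the E14.5 liver and 39.1% in the PHZ spleen, and their part in these folds was not tested.

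Cells holding 1 member often held another. For every ordered pair of members, the share of cells with the second was higher among cells with the first than among the rest, in 12 of 12 pairs in each section of the larger panel and in 20 of 20 in each of the smaller. Both orders of a pair necessarily share this direction, so that each pair is counted in both. Deeper cells hold more of any gene, and over all ordered pairs of genes with at least 30 positive cells the same was seen in 88% in the E13.5 liver, 68% in the aged marrow, 72.3% in the E14.5 liver, 66.4% in the P8 marrow, 62.3% in the untreated spleen and 65.5% in the PHZ spleen. Cells with at least 50 counts were also thinned to 50, which left out between 419 cells in the E13.5 liver and 61291 of 143810 in the aged marrow. The direction was then seen in all pairs of members, against 42.2%, 40.1%, 43.5%, 41.3%, 38.5% and 52.9% of all pairs in the same order. Before thinning, the median ratio of the shares over the members was 15.4, 28.9, 6.02, 6.28, 4.03 and 2.18 in that order, and after it 18.5, 13.3, 12.6, 9.19, 4.86 and 2.91. The thinned values of the E13.5 liver rest on 12 Mmrn1-positive cells, with 2 to 4 cells holding both genes in each pair other than Pf4 and Ppbp.

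With 2 counts for a positive cell the direction was again seen in all pairs of members, against 85.6%, 51.2%, 50.6%, 54.1%, 56.4% and 57.4% of all pairs in the same order. Over the nucleus, in the 4 sections of the smaller panel, it was seen in 20 of 20 pairs of members in the E14.5 liver, the P8 marrow and the untreated spleen and in 18 of 20 in the PHZ spleen, against 69.1%, 63%, 56.7% and 63.9% of all pairs.

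A ratio of at least 2 was reached by all pairs of members in both livers and both marrows, where 39.9% of all pairs in the E13.5 liver, 39.1% in the aged marrow, 21.4% in the E14.5 liver and 20.7% in the P8 marrow reached it. In each spleen 12 of 20 did, against 13.4% of all pairs in the untreated and 20.5% in the PHZ spleen. With 2 counts for a positive cell 16 of 20 did in the untreated and 20 of 20 in the PHZ spleen. Over the nucleus these were 12 and 10 of 20. The share of all pairs was not computed for these settings. The pairs of Slamf1 with Pf4 (ratio 1.01) and with Ppbp (1.01) in the untreated spleen, and of Vwf with Slamf1 in the PHZ spleen (1.06), were within counting error where 1 count made a cell positive. Slamf1 was in 7.08% of Vwf-positive cells of the PHZ spleen [6.65-7.52] and 6.67% of the others [6.50-6.84], and by counts over the nucleus this order was the reverse, at 2.84% and 4.38%. With 2 counts for a positive cell the shares were 5.72% [4.89-6.63] and 0.903% [0.842-0.966].

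For Pf4 and Ppbp, 57.7% of Pf4-positive cells held Ppbp in the E13.5 liver, against 1.84% of other cells. In the aged marrow the shares were 70.9% and 5.74%, in the E14.5 liver 28.7% and 3.26%, and in the P8 marrow 35.2% and 4.97%. In the untreated spleen they were 48.7% and 11.4% and in the PHZ spleen 38.4% and 11.4%. The spleens thus had the highest share of Ppbp in cells without Pf4.

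Vwf and Mmrn1 are both also made by vessel lining. Of Mmrn1-positive cells 55.6% held Vwf in the E13.5 liver, 52.1% in the E14.5 liver, 40.5% in the P8 marrow, 57.6% in the aged marrow, 25.8% in the untreated spleen and 31.5% in the PHZ spleen. In cells without Mmrn1 these were 3.54%, 13.8%, 8.04%, 2.21%, 3.51% and 13.9%. The ratio of the shares was 2.27 in the PHZ spleen, 3.78 in the E14.5 liver, 5.04 in the P8 marrow, 7.36 in the untreated spleen, 15.7 in the E13.5 liver and 26.02 in the aged marrow.

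Slamf1 went with the chemokines in liver and marrow, and less so in the spleens. Pf4 was found in 70.1% of Slamf1-positive cells and 14.5% of others in the E14.5 liver, and in 67.9% and 11.9% in the P8 marrow. In the untreated spleen it was found in 13.6% and 13.5%, a ratio of 1.01, and in the PHZ spleen in 21.4% and 13.4%. With 2 counts for a positive cell the ratio in the untreated spleen was 1.74, at 6.44% [5.85-7.08] and 3.71% [3.598-3.83] for Pf4, and 1.48 for Ppbp. All 5 members were seen in 1557 cells of the E14.5 liver, 563 of the P8 marrow, 400 (0.369%) of the untreated spleen and 219 of the PHZ spleen. The 4 members of the larger panel were seen together in 636 cells of the aged marrow, whose median of 365 counts compares with 56 in cells with none, and in 11 cells of the E13.5 liver.

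Over all cells of a section, the gene most like a member by Pearson's r of log(1 + counts scaled to 5000) was often another member. Pf4 and Ppbp had r = 0.57 in the E13.5 liver, 0.46 in the E14.5 liver, 0.47 in the P8 marrow, 0.38 in the untreated spleen and 0.27 in the PHZ spleen. In the PHZ spleen Ppbp was more like Ctla2a (r = 0.40) than like any member. Mmrn1 and Slamf1 had r = 0.48 in the E14.5 liver. In the aged marrow the gene most like each member was a platelet integrin chain, Itga2b or Itgb3, and not another member. The genes most like Vwf there were Itga2b (r = 0.51) and Itgb3 (r = 0.50). The smaller panel did not hold these integrin genes, and in the E13.5 liver they had too few counts to be ranked. Sections thus differed in which genes could be ranked, and the aged marrow is not set against the others here. These r values are descriptions over cells that share a section and differ in depth.

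The next measurement asked how far the chemokine counts extended beyond the megakaryocyte-list cells. These held more Ppbp counts than all other cells in both livers and both marrows, and more Pf4 only in the marrows. In the untreated spleen they held 5960 Pf4 counts against 19687 outside, and 6287 Ppbp counts against 26798. In the PHZ spleen these were 4581 against 19280 and 5886 against 23427. Cells below the minimum were grouped by the distance of their center from that of the nearest megakaryocyte-list cell. In the E14.5 liver, Pf4 was 1.56 counts per cell within 10 µm, 0.647 at 10-15 µm, 0.288 at 15-20 µm and 0.125 at 50-100 µm. Ppbp was 0.9698, 0.321, 0.117 and 0.0263 at the same distances. Most of the excess therefore lay within 20 µm.

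The ratio of the nearest cells to those at 50-100 µm was high for Ppbp in liver and marrow. It was 36.9 in the E14.5 liver, 36.1 in the P8 marrow, 30.2 in the aged marrow and 29.6 in the E13.5 liver, but 4.94 in the untreated spleen and 5.49 in the PHZ spleen. The Pf4 ratio was 12.4, 12.9, 11.4 and 11.7 in the first 4 sections, 5.44 in the untreated spleen and 7.11 in the PHZ spleen. These ratios moved with the gate, which sets both the centers and the cells left in the rings. With at least 5 counts the Ppbp ratio was 17.8, 19.9, 18.6 and 23.1 in the first 4 sections, 8.5998 in the untreated and 5.49 in the PHZ spleen, and with at least 20 counts it was 46.05, 45.8, 36.6, 20.8, 9.998 and 9.14. Over the nucleus it was 33.9 in the E14.5 liver, 38.3 in the P8 marrow, against 4.35 and 9.81 in the untreated and PHZ spleens. The Ppbp ratio was thus lower in the spleens under each of these gates, by amounts that varied. The Pf4 ratio was not, since with at least 5 counts it was 8.03, 5.03, 6.94, 7.71, 6.08 and 7.16, with the P8 marrow below both spleens. With at least 20 counts it was 14.7, 24.9, 12.7, 11.9, 11.4 and 9.59.

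With the gate of 10 counts, the spleens differed from the rest mainly far from megakaryocyte-list cells. At 50-100 µm Ppbp was 0.263 counts per cell in the untreated spleen and 0.2205 in the PHZ spleen, against 0.0263 in the E14.5 liver and 0.0375 in the P8 marrow. Pf4 differed less, at 0.191, 0.174, 0.125 and 0.0976 in the same order. The gap in Ppbp was smaller with at least 5 counts, at 0.0703, 0.0953, 0.0191 and 0.0264. With at least 20 counts Ppbp was 0.318, 0.275, 0.0515 and 0.0693. At the gate of 10 counts Ppbp in both spleens was still lower beyond 100 µm, at 0.117 and 0.157.

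Mmrn1 and Vwf did not choose the centers, whereas Pf4 and Ppbp did, so that their own ratios are descriptions. Of all genes, 2.95% of 440 were at least 2 times as high within 10 µm as at 50-100 µm in the E14.5 liver, 3.38% of 296 in the P8 marrow, 2.92% of 2876 in the aged marrow, 4.87% of 390 in the untreated spleen, 3.57% of 392 in the PHZ spleen and 3.17% of 2240 in the E13.5 liver. Mmrn1 was 10.02-fold higher within 10 µm than at 50-100 µm in the E14.5 liver, 5.34-fold in the P8 marrow, 6.83-fold in the aged marrow, 5.21-fold in the untreated spleen and 9.16-fold in the PHZ spleen. In the E13.5 liver the Mmrn1 ratio was 2.04, resting on 3 counts and with an interval from 0.388 to 6.88. Vwf was 3.91-fold higher in the E14.5 liver, 6.10-fold in the P8 marrow, 9.68-fold in the aged marrow, 6.17-fold in the untreated spleen, 3.76-fold in the PHZ spleen and 2.68-fold in the E13.5 liver. Here too the ratios moved with the gate. With at least 5 counts of Pf4 and Ppbp, the Mmrn1 ratio was 4.16 in the E14.5 liver, 3.30 in the P8 marrow, 4.78 in the aged marrow, 3.74 in the untreated spleen, 3.76 in the PHZ spleen and 2.82 in the E13.5 liver, and with at least 20 counts it was 18.04, 11.1, 11.7, 16.5, 30.7 and 3.13. The Vwf ratio was 1.896, 2.98, 6.696, 4.19, 1.27 and 1.18 at 5 counts and 7.71, 12.5, 13.6, 22.3, 11.2 and 6.63 at 20, in the same order. In the E13.5 liver the Vwf ratio at 5 counts [0.565-2.22] and all 3 Mmrn1 ratios had intervals that held 1. Vwf of the E14.5 liver was 0.196 counts per cell at 15-20 µm and between 0.1896 and 0.201 in every ring beyond.

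Slamf1 near the centers followed the other members in liver and marrow, with ratios of 12.9 in the E14.5 liver and 9.63 in the P8 marrow. With at least 5 counts these were 5.39 and 4.65, and with at least 20 counts 25.2 and 16.9. The Slamf1 ratio was 2.07 in the PHZ spleen, 1.13 [0.989-1.29] at 5 counts and 6.13 at 20. In the untreated spleen it was 0.839 [0.753-0.932], with 0.237 counts per cell within 10 µm and 0.369 beyond 100 µm. It was 0.5799 at 5 counts but 2.07 [1.82-2.35] at 20, so that its direction in that section turned with the gate.

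The position of the transcripts within the outline was read from the 4 sections with a transcript table. In the cells within 10 µm of a center in the E14.5 liver, 35.5% of Mmrn1, 33.2% of Slamf1, 40.0% of Vwf, 43.6% of Ppbp and 49.4% of Pf4 counts lay over the nucleus, against 56.9% of all genes' counts. Every member was thus more often off the nucleus than the average transcript in these cells. The same was seen in the P8 marrow and the PHZ spleen, while in the untreated spleen Slamf1 was the exception, with 61.3% over the nucleus against 53.2% of all genes' counts. At 50-100 µm the E14.5 liver had 61.5% of Vwf and 64.0% of Slamf1 over the nucleus, against 57.1% of all genes, and the other members stayed below it. In the PHZ spleen, Ppbp at 50-100 µm lay over the nucleus in 18.7% of counts, against 51.4% of all genes and 36.0% of Pf4, the lowest share of any member at that distance in the 4 sections.

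**Figure D2:**
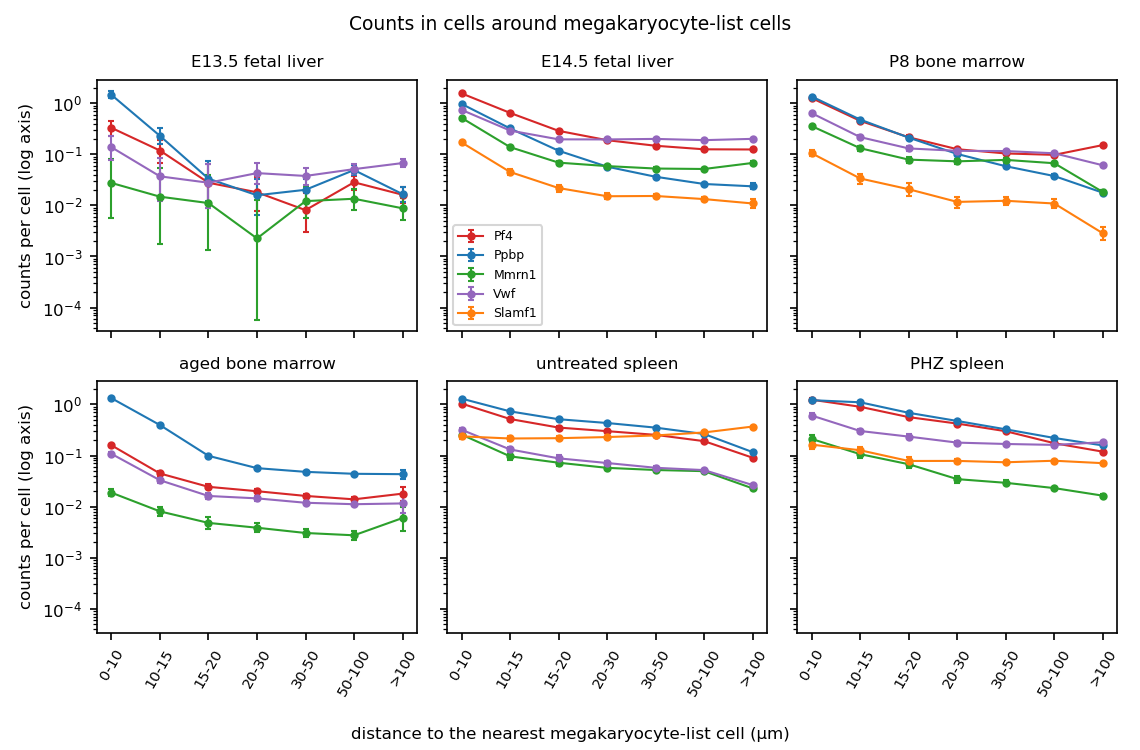
Mean counts per cell (log axis) of each member against the distance in µm from the nearest megakaryocyte-list cell, which holds at least 10 counts of Pf4 and Ppbp together and is itself left out, with 1 panel per section. Ppbp at 50-100 µm was 0.0263 counts per cell in the E14.5 liver and 0.263 in the untreated spleen, and Slamf1 in the untreated spleen was 0.237 within 10 µm and 0.369 beyond 100 µm.

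To see which cells held the remaining counts, every other cell took the class of the marker list that was highest relative to its section mean, out of 13 lists with at least 3 counts. The lists were endothelial (Kdr, Tie1, Clec14a, Plvap), C1q macrophage (C1qa, C1qb, C1qc), erythroid (Slc4a1, Rhd, Hemgn and Klf1 among them), granulocyte, T cell, NK cell, hepatocyte, stromal, smooth muscle, cartilage, skeletal muscle, mesothelial and mast cell. These are gates on counts and not annotated cell types.

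Pf4 beyond 50 µm from any megakaryocyte-list cell was not matched by Ppbp in some classes. In the E14.5 liver, C1q macrophage-list cells held 1698 Pf4 and 156 Ppbp counts, or 10.9 Pf4 per Ppbp [9.23-12.9]. Mesothelial-list cells gave 8.67, while erythroid-list cells gave 3.74, hepatocyte-list cells 3.39 and the megakaryocyte-list cells themselves 0.943. Per cell, Pf4 was 0.352 and Ppbp 0.0323 in the distant macrophage-list cells.

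The P8 marrow gave the widest gap. C1q macrophage-list cells held 1023 Pf4 and 55 Ppbp counts there, a ratio of 18.6 [14.2-24.9]. Skeletal muscle-list cells held 805 and 49, a ratio of 16.4, and mast cell-list cells gave 13.0. Erythroid-list cells gave 1.87 and megakaryocyte-list cells 0.839. Within the E14.5 liver and the P8 marrow the ratio thus differed between classes beyond counting error.

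In the aged marrow the ratio in C1q macrophage-list cells was 1.36 [0.986-1.87], against 0.151 in erythroid-list cells and 0.0933 in megakaryocyte-list cells, on a panel with other probe sets. In the untreated spleen it was 0.712 in C1q macrophage-list cells and 0.752 in endothelial-list cells, both below the 0.948 of megakaryocyte-list cells. In the PHZ spleen the C1q macrophage-list cells gave 1.23 [1.16-1.30] and the endothelial-list cells 0.369 [0.337-0.405], against 0.778 in megakaryocyte-list cells. The T cell-list cells of that section gave 1.38 [1.199-1.59], overlapping the macrophage-list value. Per endothelial-list cell of the PHZ spleen Ppbp was 0.647 and Pf4 0.239 counts at this distance, and since each gene has its own probes only the ratio is set against that of other classes. Mesothelial-list cells, whose list holds the surface uroplakins Upk1b and Upk3b, gave 4.53 Pf4 per Ppbp in the PHZ spleen.

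**Figure D3:**
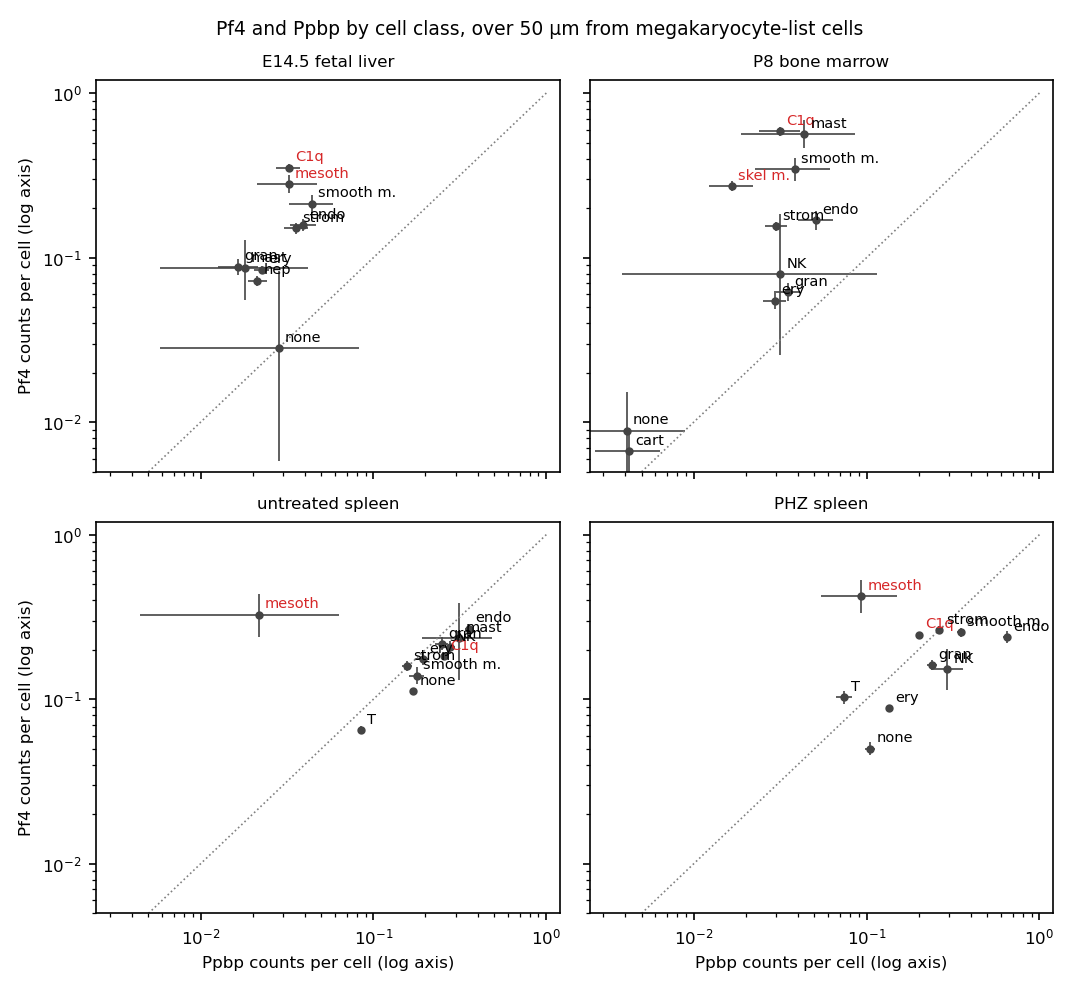
Mean Pf4 against mean Ppbp counts per cell (log axes) in each marker class, over cells more than 50 µm from a megakaryocyte-list cell, in the 4 sections of the smaller panel. The dotted line marks equal counts, and red labels mark the C1q macrophage (C1q), mesothelial (mesoth) and skeletal muscle (skel m.) lists. Other labels are endothelial (endo), stromal (strom), granulocyte (gran), erythroid (ery), hepatocyte (hep), smooth muscle (smooth m.), mast, NK, T, cartilage (cart) and no class (none). C1q macrophage-list cells held 10.9 Pf4 per Ppbp in the E14.5 liver and 18.6 in the P8 marrow.

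Vwf is the textbook transcript of vascular endothelium, and its share in endothelial-list cells was read next. These cells held 17.3% of all Vwf counts in the E13.5 liver, 10.9% in the E14.5 liver, 6.05% in the P8 marrow, 0.142% in the aged marrow, 7.601% in the untreated spleen and 5.97% in the PHZ spleen. Megakaryocyte-list cells held 15.03%, 38.98%, 51.4%, 70.3%, 39.1% and 13.6% of Vwf in the same order. These shares depend on how many cells reached 3 counts of any list. Cells of no class were 74.4% of the aged marrow, 38.2% of the E13.5 liver, 33.2% of the untreated spleen, 12.2% of the PHZ spleen, 3.44% of the P8 marrow and 0.175% of the E14.5 liver, and they held 22.1% of the Vwf of the aged marrow and 19.7% of that of the E13.5 liver. The endothelial share of Vwf was below the megakaryocyte share in 5 of 6 sections. The exception was the E13.5 liver, where the interval of the endothelial share, from 13.5% to 21.7%, held the megakaryocyte share. The share moved with the gate in some sections. With at least 5 endothelial-list counts it was 3.46% in the PHZ spleen, and by counts over the nucleus 3.65%. In the aged marrow it was 0.0109% [0.000276-0.0608] with at least 5 endothelial-list counts, in 55 cells. In the aged marrow it was 0.0546% with megakaryocyte-list cells taken from 5 counts and 0.0488% after thinning to 50. The aged marrow had only 315 endothelial-list cells, or 0.219% of its cells, by this gate, and was separated from bone before embedding.

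Per endothelial-list cell, Vwf was 0.586 counts in the E14.5 liver, 0.333 in the E13.5 liver, 0.301 in the PHZ spleen, 0.297 in the P8 marrow, 0.1004 in the untreated spleen and 0.0413 in the aged marrow. Most endothelial-list cells had none. Vwf was found in 26.5% of them in the E14.5 liver, 18.9% in the E13.5 liver, 16.9% in the P8 marrow, 7.16% in the untreated spleen, 20.3% in the PHZ spleen and 1.59% in the aged marrow. More than 50 µm from any megakaryocyte-list cell the shares were close to these, at 25.6% in the E14.5 liver, 26 of 130 cells in the E13.5 liver, 17.7% in the P8 marrow, 6.01% in the untreated spleen, 531 of 2656 cells in the PHZ spleen and 1 of 82 cells (1.22%) in the aged marrow.

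Erythroid-list cells, which are no known source of Vwf, served as the comparison. They held it in 15.2% of cells in the E14.5 liver, where their median of 160.0 counts compares with 181 in endothelial-list cells. The share was 2.82% in the E13.5 liver (median 196 against 360.0 counts) and 12.9% in the P8 marrow (111 against 145). It was 8.89% in the untreated spleen (129 against 110.0 counts), 21.0% in the PHZ spleen (124 against 141) and 2.59% in the aged marrow (124 against 169). The share of endothelial-list cells with Vwf was thus below that of erythroid-list cells in the untreated spleen [6.55-7.82 against 8.10-9.74]. In the PHZ spleen [19.1-21.6 against 20.6-21.4] and the aged marrow [0.517-3.67 against 2.35-2.84] these did not differ beyond counting error, and in the remaining sections the endothelial share was above the erythroid one.

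Smooth muscle-list cells held more Vwf per cell than endothelial-list cells in 4 of the 5 sections that had at least 20 of them. The values were 0.947 in the E14.5 liver, 1.23 in 31 cells of the E13.5 liver, 0.839 in the P8 marrow and 0.121 in the untreated spleen. The exception was the PHZ spleen, with 0.169.

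Endothelial-list cells with 3 or more Vwf counts, far from megakaryocyte-list cells, were compared with those that had none. There were 172 against 2487 of them in the E14.5 liver, 57 against 1174 in the P8 marrow, 19 against 3923 in the untreated spleen and 46 against 2125 in the PHZ spleen. Their median distance to the nearest smooth muscle-list cell was 15.9 against 52.9 µm in the E14.5 liver, 15.1 against 71.5 µm in the P8 marrow, 10.7 against 36.7 µm in the untreated spleen and 13.7 against 24.5 µm in the PHZ spleen. Smooth muscle counts were present within the outline in 55.2% against 17.5%, 57.9% against 20.8%, 89.5% against 24.3% and 71.7% against 56.3% of cells. The Vwf-rich endothelial-list cells thus lay closer to smooth muscle, which coats arteries and larger veins, in all 4 sections. They also held more counts in all, with a median of 215.5 against 176 in the E14.5 liver and 125 against 110 in the untreated spleen. In the spleens they were richer in Ppbp as well. It was 1.26 against 0.300 counts per cell in the untreated (3.76-fold) and 1.30 against 0.505 in the PHZ spleen (2.17-fold). The source of these Ppbp counts was not tested.

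Among 14 vessel genes, 5 of 11 measured ones were at least 2-fold higher in Vwf-rich endothelial-list cells of the E14.5 liver, where 21.4% of all genes were. The scavenger receptor Ackr3 (17.2-fold), Ly6a (10.3-fold), Cd34 (5.26-fold), the arterial transcription factor Sox17 (4.02-fold), the caveolar protein Cav1 (2.30-fold) and Podxl (1.84-fold) were highest. In the P8 marrow 4 of 11 reached it, against 8.16% of all genes, namely the sialomucin Podxl (3.53-fold), Sox17 (2.96-fold), Ly6a (2.87-fold) and Cav1 (2.83-fold). In the untreated spleen 7 of 12 did, against 15%, among them Podxl (11.0-fold), Cd34 (4.66-fold), Cav1 (4.16-fold), Sox17 (3.06-fold) and Ly6a (2.92-fold), while Lyve1 rested on 3 counts in the Vwf-rich cells. Under PHZ 4 of 12 did, against 9.28%, with Podxl at 2.65-, Cd34 at 2.40-, Sox17 at 2.22- and Cav1 at 2.04-fold. Sox17 and Cav1 were above 2-fold in all 4 sections. Ackr3, the highest in the E14.5 liver, was below 1 elsewhere, at 0.731-fold in the P8 marrow, 0.594-fold in the untreated and 0.787-fold in the PHZ spleen. These values rest on 6, 11 and 51 counts in the Vwf-rich cells. Gpihbp1 of the same list, named after its values were seen, was not higher in Vwf-rich cells of any of the 4 sections. It was 0.640-fold in the E14.5 liver, 0.826-fold in the P8 marrow, 0.273-fold in the untreated and 0.991-fold in the PHZ spleen. In the same order these rest on 36, 68, 6 and 73 counts in the Vwf-rich cells, and no intervals were computed.

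Among these cells Mmrn1 followed Vwf in the fetal liver. It was 14.004-fold higher in Vwf-rich endothelial-list cells of the E14.5 liver, at 1.31 against 0.0768 counts per cell. The Vwf-rich cells of each spleen held 3 Mmrn1 counts. In the P8 marrow the 57 Vwf-rich cells held 2 Mmrn1 counts, 0.0351 per cell, against 0.206 per cell in those without Vwf. Yet endothelial-list cells of the P8 marrow held more Mmrn1 than any class other than megakaryocyte-list cells, 0.313 counts per cell, with 20.4% of them positive and 11.0% of all Mmrn1. In the E14.5 liver Mmrn1 was 0.187 per endothelial-list cell, 0.3199 per smooth muscle-list cell and 0.229 per mesothelial-list cell.

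A large part of Vwf lay outside both megakaryocyte-list and endothelial-list cells. Erythroid-list cells held 50.2% of it in the PHZ spleen, 21.1% in the P8 marrow, 20.5% in the E14.5 liver, 19.9% in the E13.5 liver, 6.23% in the untreated spleen and 5.02% in the aged marrow. They made up 39.1%, 31.6%, 38.2%, 41.6%, 4.38% and 11.6% of cells. To set aside neighbors and vessels, cells more than 50 µm from a megakaryocyte-list cell, with no endothelial-list count and without Pf4 or Ppbp, were ordered by their erythroid-list counts, and for Pf4 or Ppbp only the other of the pair had to be absent.

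Vwf per cell was higher in each successive bin in the PHZ spleen, at 0.0195 with no erythroid-list count, 0.0454 with 1-4, 0.0830 with 5-9, 0.154 with 10-19, 0.287 with 20-39, 0.472 with 40-79 and 0.725 with 80 or more (51 cells). Cells with more erythroid counts also held more counts in all, with a median of 57 in the first and 233 in the 40-79 bin. As a share of counts, Vwf was still 299.8 CPM in the first bin, 1953 in the 40-79 bin and 1709 with 80 or more. In the first and the 40-79 bin Mmrn1 was 0.0157 and 0.0125 counts per cell, Pf4 0.117 and 0.103 and Ppbp 0.0557 and 0.0916, while Slamf1 was lower with more erythroid-list counts, at 0.163 and 0.0111. Ppbp per cell was highest with 1-4, at 0.177. As a share of counts all of these were lower in the 40-79 than in the first bin. Mmrn1 was 51.5 against 241 CPM, Pf4 425 against 1726 and Ppbp 378 against 844.

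The order differed in detail elsewhere. Vwf of the E14.5 liver was 0.0339, 0.0366 and 0.0347 counts per cell in the first 3 bins and higher in each bin after these, reaching 0.368 with 80 or more, or 276 CPM in the first bin and 1090.2 in the last. It was 0.00945 and 0.196 with 40-79 in the P8 marrow, or 116 and 942 CPM, and 0.0102 and 0.208 in the untreated spleen, or 123 and 767 CPM. Mmrn1, Slamf1 and Ppbp were also higher in the last than in the first bin of the P8 marrow, at 0.0346 against 0.00444 for Mmrn1, 0.0105 against 0.000756 for Slamf1 and 0.0255 against 0.00676 for Ppbp, whereas Pf4 was lower, at 0.0578 against 0.1002. Ppbp of the E14.5 liver was 0.0254 with 80 or more erythroid-list counts and 0.00282, a single count, with none. In the aged marrow Vwf was higher in each bin per cell, from 0.00335 to 0.0556 with 20-39, but as a share of counts it was 48.2, 85.6, 165, 142 and 139 CPM. In the E13.5 liver, where the bins held 8 to 27 counts, it was 0.0165, 0.0210, 0.0156 and 0.02996, with no order. Transcripts of Vwf with a quality score of at least 30 were 63.8% of those in erythroid-list cells and 74.7% in megakaryocyte-list cells of the E14.5 liver, 76.7% and 81.1% in the P8 marrow, 79.8% and 80.1% in the untreated spleen and 65.1% and 69.8% in the PHZ spleen. The genes most like Vwf over cells of the PHZ spleen were Aqp1 (r = 0.20), Gata1 (r = 0.19) and Hbb-bt (r = 0.19), a water channel of red cells, the erythroid regulator and a beta globin. In the E13.5 liver they were Ppbp (r = 0.19), the endothelial cadherin Cdh5 (r = 0.19) and Col18a1 (r = 0.16). The source of Vwf counts in erythroid-list cells was not tested.

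**Figure D4:**
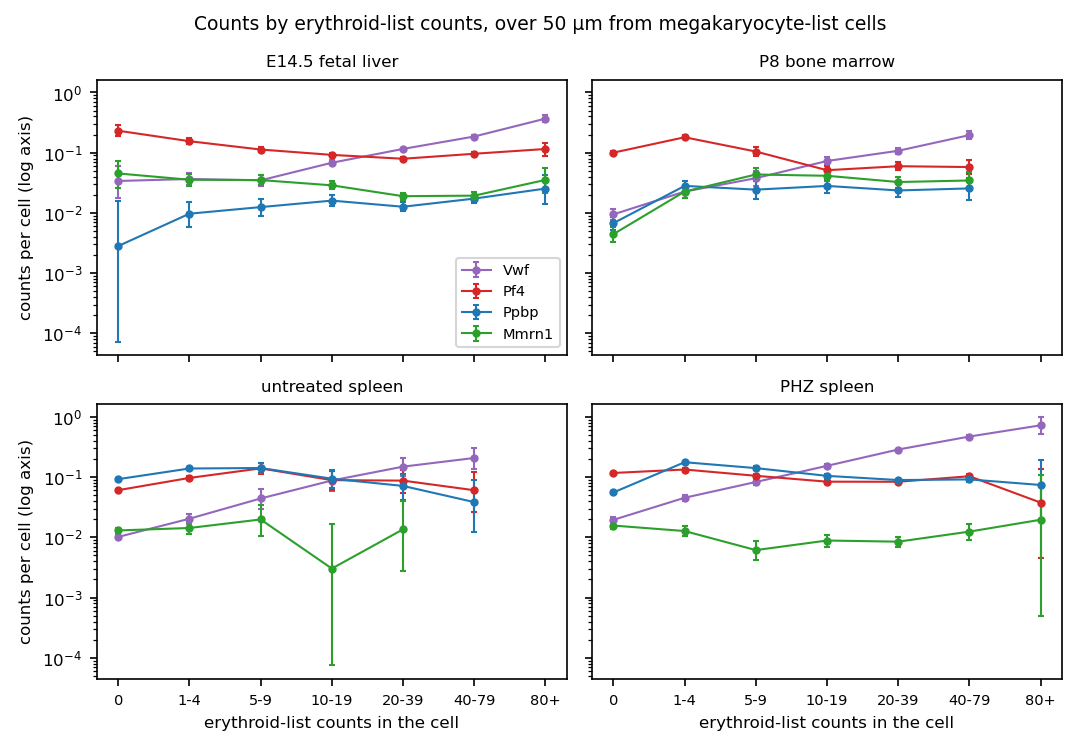
Mean counts per cell (log axis) of Vwf, Pf4, Ppbp and Mmrn1 against the number of erythroid-list counts in the cell, for the 4 sections of the smaller panel, over cells more than 50 µm from a megakaryocyte-list cell and without endothelial-list counts, with exact 95% Poisson intervals. Bins of fewer than 50 cells or with no count have no point. In the PHZ spleen Vwf was 0.0195 in cells with no erythroid-list count and 0.472 in those with 40-79, whereas Mmrn1 was 0.0157 and 0.0125.

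Slamf1 in the spleen was mainly found away from megakaryocyte-list cells, which held 4.06% of it in the untreated and 11.9% in the PHZ spleen, against 70.7% in the E14.5 liver and 72.3% in the P8 marrow. In the untreated spleen T cell-list cells held 26.8% of Slamf1, at 0.415 counts per cell, and cells of no class 39.8%, at 0.385. As a share of counts the order was the reverse, at 4585 and 5895 CPM. None of the lists was for B cells. Erythroid-list cells gave 0.177 counts per cell. Of the cells with Slamf1, 60.9% held Cxcr5, the homing receptor of B cells and follicular helper T cells, against 38.1% of the rest, and 40.7% held Cd3e, a chain of the T cell receptor complex, against 31.4%. In the PHZ spleen 28.7% of Slamf1-positive cells held Cd3e, against 7.93%, and 23.6% held the T cell checkpoint receptor Ctla4, against 6.45%. The genes most like Slamf1 were Cxcr5 (r = 0.20), Rac2 (r = 0.19) and Ncf4 (r = 0.17) in the untreated spleen, and Cd3e (r = 0.19), Ctla4 (r = 0.17) and Laptm5 (r = 0.16) in the PHZ spleen. Of Slamf1 counts in the untreated spleen, 76.4% lay over the nucleus, against 58.9% of all genes' counts.

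In the E14.5 liver, 927 cells held Slamf1 without Pf4 or Ppbp. Of these 45.3% held Kit, the stem cell factor receptor, against 19.7% of other cells without the chemokines, and 24.8% held Cd48 against 6.36%. Cd34 was in 10.4% against 5.37% and Ly6a (Sca-1) in 2.70% [1.75-3.96] against 2.06%, the latter within counting error. In the P8 marrow 302 such cells held Kit in 25.5% against 9.21% and Cd48 in 32.1% against 11.7%, while Cd34 at 8.61% against 8.68% and Ly6a at 7.95% against 5.46% did not differ beyond counting error. Hematopoietic stem cells are classically sorted as CD150-positive and CD48-negative. Most of these cells had no Cd48 count, yet such a count was more frequent in them than in the other cells of both sections. Absence of a count in a thin section is not absence of the transcript, and the identity of these cells was not tested.

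The comparison of the spleens asked how the members stood under PHZ. In CPM, Vwf was 829 in the untreated and 1705 in the PHZ spleen, 2.06-fold higher under PHZ [2.01-2.11]. With a fold of 1.5 as the limit, 16.5% of 472 genes were higher in the PHZ spleen and 41.5% lower, and the median gene stood at 0.731-fold, or -0.45 on the log2 scale. Vwf was the only member past the limit upward. Slamf1 was 0.211-fold [0.206-0.217], from 3361 to 710.5 CPM, and Mmrn1 0.449-fold [0.431-0.467], from 719.9 to 323 CPM. Pf4 at 0.843-fold [0.828-0.858] and Ppbp at 0.802-fold [0.790-0.815] did not reach the limit and lay above the median gene. Per cell, Pf4 was 1.07-fold and Ppbp 1.01-fold, with Vwf at 2.60-, Mmrn1 at 0.568- and Slamf1 at 0.267-fold. Per mm² of section Pf4 was 0.616-fold and Ppbp 0.587-fold, where the median gene was 0.535-fold. In 200 µm squares with fewer than 5% T cell-list cells Pf4 was 0.500-fold and Ppbp 0.744-fold, where the median gene was 0.524-fold.

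The excess of Vwf was not in megakaryocyte-list cells. These held 6.55 Vwf counts per cell in the untreated and 4.72 in the PHZ spleen, 0.7198-fold, and as a share of their counts 0.574-fold. Their median outline was 65.0 µm² in the untreated and 141 in the PHZ spleen, so that the gate may not have caught like cells. Less Vwf per megakaryocyte and another choice of cells cannot be told apart here. Without megakaryocyte-list cells Vwf of the remaining cells was 2.93-fold higher in CPM. Per cell, Vwf was 0.112 and 0.265 in erythroid-list cells of the untreated and the PHZ spleen, 2.35-fold, and 0.1004 and 0.301 in endothelial-list cells, 3.002-fold. It was also higher in granulocyte-list (2.51-fold), stromal-list (2.87-fold), C1q macrophage-list (2.19-fold) and T cell-list cells (1.76-fold). Erythroid-list cells were 4.38% of the untreated and 39.1% of the PHZ spleen, so that the higher Vwf came with a higher level per erythroid-list cell and more of these cells.

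Mmrn1 was lower in megakaryocyte-list cells, at 5.55 counts per cell in the untreated and 2.38 in the PHZ spleen, 0.429-fold, and in endothelial-list cells, 0.619-fold. As for Vwf, the gate may not have caught like megakaryocyte-list cells in both spleens. In T cell-list cells Mmrn1 was 1.18-fold, with an interval from 0.979 to 1.42. Slamf1 was 0.415 and 0.298 counts per T cell-list cell, 0.718-fold, and 0.385 and 0.123 in cells of no class, 0.318-fold. As a share of counts these were 0.675- and 0.456-fold. Cells of no class had a median of 61 counts in the untreated and 42 in the PHZ spleen. T cell-list cells were 20.7% of the untreated and 5.91% of the PHZ spleen. In 200 µm squares with fewer than 5% T cell-list cells, which held 6.74% of the cells of the untreated and 71.1% of those of the PHZ spleen, Slamf1 was 0.368-fold and Mmrn1 0.209-fold.

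Per cell, Pf4 and Ppbp stood on the same side of 1 in some classes and apart in others. In stromal-list cells Pf4 was 1.86-fold and Ppbp 1.61-fold, and in smooth muscle-list cells 1.86- and 1.75-fold. Both were lower in erythroid-list cells, Pf4 at 0.496-fold, from 0.221 to 0.109, and Ppbp at 0.667-fold, from 0.244 to 0.163. They stood apart in C1q macrophage-list cells, where Pf4 was 1.45-fold, from 0.23999 to 0.349, and Ppbp 0.858-fold. In endothelial-list cells Ppbp was 1.695-fold, from 0.456 to 0.774, and Pf4 0.977-fold [0.912-1.05], and in T cell-list cells Pf4 was 1.63-fold and Ppbp 0.929-fold [0.849-1.01]. The outline of a cell was larger in the PHZ spleen, with a median of 52.7 against 35.6 µm² outside megakaryocyte-list cells, and the part of outline size in these values was not tested.

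The quality of decoding also differed between the spleens. Of all decoded gene transcripts, 90.5% in the untreated and 70.9% in the PHZ spleen had a score of at least 20, the minimum for the deposited counts. For Pf4 this was 95.3% and 53.9%, for Mmrn1 90.0% and 52.4%, for Ppbp 81.7% and 69.1%, for Vwf 81.4% and 71.3%, and for Slamf1 90.9% and 73.8%. With all decoded transcripts, whatever their score, Pf4 was 1.18-fold, Ppbp 0.748-fold, Mmrn1 0.602-fold, Vwf 1.83-fold and Slamf1 0.203-fold. False decodes enter these values. Negative control probes gave 9700 decoded transcripts in the PHZ and 2749 in the untreated spleen, of which 95.7% and 76.8% scored below 20. The direction for Vwf, Mmrn1 and Slamf1 was the same with and without the minimum, whereas that for Pf4 was not.

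**Figure D5:**
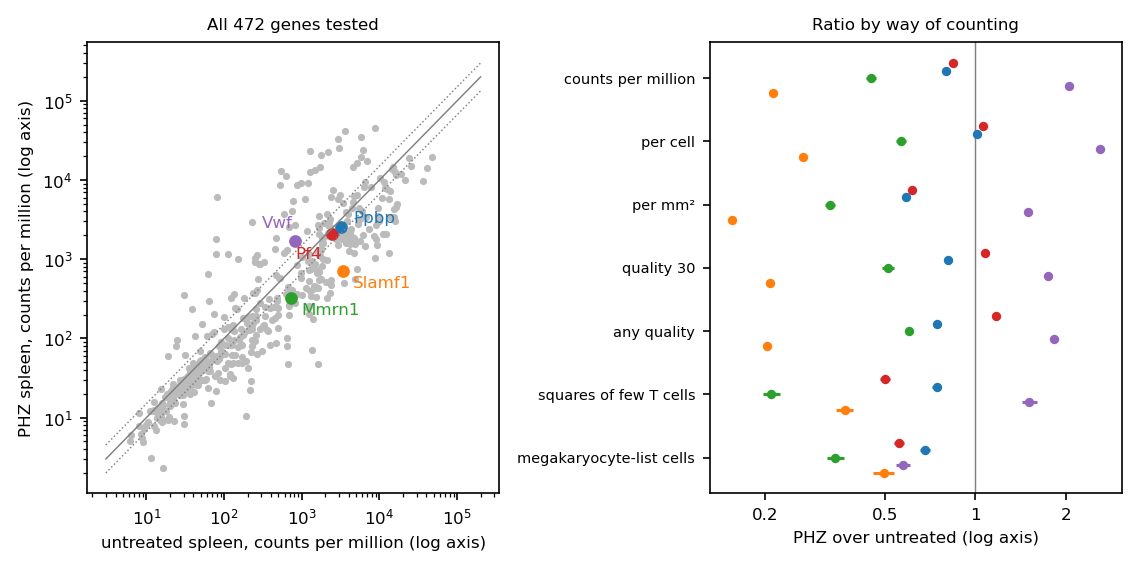
Left, CPM of 472 genes in the untreated (x) and PHZ (y) spleen on log axes, with the members marked and dotted lines at 1.5-fold. Right, the ratio of the PHZ to the untreated spleen (log axis) for each member under CPM, counts per cell, counts per mm², transcripts of quality 30 or more, transcripts of any quality, squares with few T cell-list cells, and megakaryocyte-list cells alone. Vwf was above 1 in all of these except megakaryocyte-list cells, where it was 0.574. Pf4 and Ppbp chose those cells, so that their own values there are descriptions.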

How the data were processed

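RNA was counted in situ with Xenium in 6 mouse sections, grouped by their labels. The authors deposited, for each section, a matrix of counts of decoded transcripts per gene and outlined cell, without normalization, and a table of cell positions and areas in µm and µm² (other measurements, as deposited). For the sections of the 477-gene panel (379 predesigned and 98 custom genes) the authors also deposited single transcripts with a quality score, a log-scaled value of decoding confidence. The other panel held 5006 predesigned and 44 custom genes. The deposited run descriptions name onboard software 1.7.1.0 and 3.1.0.4. The deposited counts per cell use transcripts with a score of at least 20. Both spleens lay on the same slide, as did the E14.5 liver and the P8 marrow. The sections of the larger panel shared another slide.

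From these counts, levels were computed as CPM (counts in 1000000 gene counts of the section), per cell and per mm² of 50 µm squares holding a cell. A cell with at least 10 counts of Pf4 and Ppbp together was a megakaryocyte-list cell. Any other cell took the class with the highest list sum relative to its section mean among 13 lists with at least 3 counts. The lists not spelled out in the text were granulocyte (S100a9, Mpo, Elane, Ctsg, Ly6g, Csf3r), T cell (Cd3e, Cd3d, Cd4, Cd8a), NK cell (Ncr1, Klrb1c, Klra8), hepatocyte (Ambp, Hpx, Gc, Hrg), stromal (Col1a1, Col1a2, Lum, Dpt, Pdgfra), smooth muscle (Myh11, Tagln, Cnn1, Myl9), cartilage (Col2a1, Acan, Comp), skeletal muscle (Ttn, Myoz1, Pygm, Actn3), mesothelial (Upk1b, Upk3b) and mast cell (Cpa3). Some genes of the erythroid and megakaryocyte lists entered the counts but are not reported here by name. Folds were taken over genes with at least 100 counts over the groups compared (30 in the E13.5 liver), classes over at least 20 cells and erythroid bins over at least 50 cells. A gene with no count in the first group was not counted as higher and entered medians as 0. The computation of folds was tested on simulated data.

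Members, lists and limits were chosen with earlier results of these data known. Genes other than the members were named if they were in these lists, at most 6 per section by largest fold, or among the 3 most like a member by Pearson's r over cells of log(1 + counts scaled to 5000), out of genes with at least 500 counts. Intervals are exact Poisson intervals for counts, Clopper-Pearson intervals for shares and conditional binomial intervals for ratios. Levels of different genes were not compared as abundance, since probe sets per gene ranged from 5 to 8 on the smaller and from 2 to 5 on the larger panel. The alternatives were other scales, thinning to 50 counts, other gates of 5 or 20 counts, 2 counts for a positive cell, transcripts over the nucleus, other quality scores and parts of the sections. Cell and nucleus polygons were not used. Python 3.11.15, numpy 2.4.6, scipy 1.17.1, pandas 2.3.3 and matplotlib 3.10.9 were used.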

Additional observations from a re-analysis of the deposited data

Results flagged for a closer look

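Transcripts that did not enter the deposited counts, because their quality score was below 20, were a larger share of every member's decoded transcripts in the PHZ spleen than in the untreated spleen. For Mmrn1 this share was 47.6% in the PHZ spleen and 10.03% in the untreated spleen. For Pf4 it was 46.1% and 4.65%. For Ppbp it was 30.9% and 18.3%, for Vwf 28.7% and 18.6%, and for Slamf1 26.2% and 9.14%. Over all genes it was 29.1% and 9.45%. Ranked by the ratio of the passing share in the PHZ spleen to that in the untreated spleen, from the lowest, Pf4 was number 87 and Mmrn1 number 96 of 422 genes, while Slamf1 was 327, Ppbp 369 and Vwf 390. The difference was not tested, with 1 section per condition.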

How the results depend on the processing

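Folds of the PHZ over the untreated spleen are listed for Pf4, Ppbp, Mmrn1, Vwf and Slamf1 in that order, where they moved beyond counting error. Counts per cell gave 1.07, 1.01, 0.568, 2.60 and 0.267, and counts per mm² 0.616, 0.587, 0.328, 1.505 and 0.155. A total without Hbb-bt gave 0.875 for Pf4, 0.833 for Ppbp, 2.14 for Vwf and 0.219 for Slamf1. Setting the median gene to 1 gave 1.15, 1.10, 0.614, 2.82 and 0.289. Thinning to 50 counts gave 0.887, 0.822, 0.499, 2.36 and 0.221. Squares with few T cell-list cells gave 0.500, 0.744, 0.209, 1.52 and 0.368. A score of at least 30 gave 1.08 for Pf4, 0.513 for Mmrn1 and 1.74 for Vwf. These alternatives were chosen after seeing the data: transcripts of any score gave 1.18, 0.748, 0.602, 1.83 and 0.203. Leaving out megakaryocyte-list cells gave 0.889 for Pf4, 2.93 for Vwf and 0.195 for Slamf1. Megakaryocyte-list cells alone gave 0.559, 0.680, 0.342, 0.574 and 0.495, where the values of Pf4 and Ppbp, which chose these cells, are descriptions only. Vwf thus turned direction in these cells. The cause was not tested. Mmrn1 and Slamf1 were below 1 under every alternative, and Vwf above 1 under every other one. Cells with at least 5 genes, and transcripts outside cells, moved no fold beyond counting error.

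The share of cells with a second member was higher in cells with the first in 104 of 104 ordered pairs, some of them within counting error, also after thinning and with 2 counts per positive cell. Over the nucleus this was so in 78 of 80, and the pair of Vwf and Slamf1 in the PHZ spleen turned direction (ratios 0.650 and 0.660 for its orders). Both orders of a pair necessarily share the direction, so that each pair is counted in both. The endothelial share of Vwf was below that of megakaryocyte-list cells in 5 of 6 sections, in 5 or 6 of 6 under the alternatives and in 4 of 4 over the nucleus. No paired analysis was possible because each condition had 1 section. Every comparison between conditions therefore rests on 1 section each, the shallowest with a median of 60 counts per cell.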
